A study of Rattus norvegicus with 31 samples.

Results

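GABA-A receptors are chloride channels built from rings of subunits that open when the inhibitory transmitter GABA binds, and 7 of their subunit genes were followed here in the CA3 region of the hippocampus of aged rats: Gabra2, Gabra4, Gabra5, Gabrb1, Gabrb2, Gabrd and Gabrg1. The members were all probesets that the array annotation maps to 1 of these symbols alone. A probeset is a set of short probes that reads 1 stretch of a transcript. They came to 9 of the 16204 probesets in the table and 7 of its 9037 named genes. Gabrb2 and Gabrd were each read by 2 probesets, which are given apart, with the one of lower mean signal called the dimmer probeset. Other GABA-A subunit genes are not analysed here.

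The rats were male Long-Evans rats aged 24 to 26 months. Rats called aged unimpaired (AU) had found a hidden platform in a water maze as well as young rats do, and rats called aged impaired (AI) had not. Later, each rat swam 8 trials to a visible platform in a new setting. In the spatial task (S) the platform stayed in 1 place among cues around the pool, and in the non-spatial task (NS) it moved between trials and the cues were removed. The groups were AU-S (8 rats), AI-S (8), AU-NS (8) and AI-NS (7), with AU-act (16) and AI-act (15) pooling both tasks. At 1 hour after the last trial every rat had a probe swim without the platform, and it was killed right after this swim. About 2 hours from the start of the task the brain was removed, CA3 was dissected by hand, the hemispheres of a rat were joined, and each rat had 1 array, so rats are the replicates. No untrained, young or drug-treated rats are analysed here, so every difference is one between trained aged groups.

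Each receptor holds alpha and beta subunits, which form the GABA site between them, and usually a gamma or a delta subunit. Receptors with a gamma subunit are mostly placed at synapses and carry brief, phasic inhibition. Receptors with the delta subunit or with alpha5 lie mostly outside synapses and carry a steady, tonic inhibition set by ambient GABA. In the hippocampus alpha5 is abundant in pyramidal cells, while alpha4 with delta is best known from granule cells of the dentate gyrus. Gabrg1 encodes gamma1, a gamma subunit of restricted distribution that is also found in glia.

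Signals are log2 values made by the authors with gcRMA, and 1 unit is a 2-fold difference. The arrays were alike, with medians between 8.97 and 9.14 and mean correlations with the other arrays between 0.981 and 0.989. Of 5 CA3 markers written down for the check, the 3 in the table (Bok, Grik4 and Spock1) had signals on every array, the lowest being 8.96. Of 7 dentate granule markers 3 were in the table (Prox1, Calb1 and Trpc6), and none of these was at the floor either. The array also carries control probesets at both ends of the Gapdh and beta-actin transcripts, and the gap between the 3′ and the 5′ probesets widens when RNA is broken. This 3′ minus 5′ control difference was 1.45 ± 0.10 (SD, n = 16) in AU and 1.59 ± 0.13 (SD, n = 15) in AI rats (two-sided permutation test, p = 0.00068). Because it moved with the groups, the AU-act minus AI-act difference of every member is also given with it as a covariate. The study left out 1 array of the AI-NS group as an outlier.

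The member results turn on 3 genes: Gabrg1, Gabra4 and Gabrb2. Gabrb1, Gabra4, Gabra2 and Gabrg1 lie in this order on chromosome 14, Gabrb2 lies on chromosome 10, Gabra5 on chromosome 1 and Gabrd on chromosome 5. RefSeq promoters of the GRCr8 build were matched for 6 of the 7 members. Gabra2 had no entry. The 250 bases before the start of transcription are printed for these 3 genes to show how unlike they are, with capitals for a match to the Egr box GCGNGGGCG, the sequence bound by Egr factors of the immediate early response, or to the GC box GGGCGG, on either strand. Both were searched, along with the half-site TGACG and the TATA box TATAAA, after the values had been seen.
Gabrg1: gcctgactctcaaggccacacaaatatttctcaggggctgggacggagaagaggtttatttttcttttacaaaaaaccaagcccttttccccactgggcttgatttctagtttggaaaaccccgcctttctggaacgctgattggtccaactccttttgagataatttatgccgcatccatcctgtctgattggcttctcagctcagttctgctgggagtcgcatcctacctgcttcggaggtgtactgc
Gabra4: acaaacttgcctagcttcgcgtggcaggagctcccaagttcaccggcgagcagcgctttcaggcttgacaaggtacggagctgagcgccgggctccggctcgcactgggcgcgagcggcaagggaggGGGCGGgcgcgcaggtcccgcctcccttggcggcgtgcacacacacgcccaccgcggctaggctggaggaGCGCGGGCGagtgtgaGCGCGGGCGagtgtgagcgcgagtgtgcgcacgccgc
Gabrb2: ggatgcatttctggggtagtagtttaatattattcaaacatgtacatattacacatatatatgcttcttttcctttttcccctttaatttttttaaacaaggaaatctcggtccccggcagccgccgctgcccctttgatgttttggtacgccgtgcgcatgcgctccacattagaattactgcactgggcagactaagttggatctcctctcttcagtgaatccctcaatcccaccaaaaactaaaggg
They are on the plus strand at chr14:37750042-37750291 for Gabrg1, chr14:36944497-36944746 for Gabra4 and chr10:27439543-27439792 for Gabrb2. The Gabra4 window had 71.6% G or C, 33 CpG, 2 Egr boxes and 1 GC box. The Gabrg1 window had 48.4% G or C and 6 CpG, and the Gabrb2 window 43.2% and 8 CpG, and neither held any of the 4 motifs. Over 33469 promoters of this length the median was 51.2% G or C and 5 CpG, and 4.29% held an Egr box, 30.5% a GC box, 18.2% the half-site and 12.9% the TATA box. The other 3 members with an entry held no Egr box. A high G or C content and a GC box were not particular to Gabra4. The Gabra5 window had 76.4% G or C, 37 CpG and 1 GC box, and the Gabrd window 74.0%, 35 CpG and 4 GC boxes. The Gabrb1 window had 49.2% and 8 CpG. These arrays measured transcripts only, and the matches describe the sequences.

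Gabrg1 was the member that differed between the phenotypes, and it was higher in AU rats. After the spatial task the AU-S rats read 9.05, 9.12 and 9.23 (lowest, median and highest of 8) and the AI-S rats 8.35, 8.68 and 9.06. The groups barely overlapped, since 7 of 8 AU-S rats were above every AI-S rat, and the AU-S values lay much closer together (SD 0.07) than the AI-S values (SD 0.24). After the non-spatial task the AU-NS rats read 8.83, 9.15 and 9.45 and the AI-NS rats 8.24, 8.92 and 9.16, with 7 of 8 AU-NS rats above the AI-NS mean.

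Over both tasks AU-act exceeded AI-act in Gabrg1 by 0.35 (SE 0.08, 95% interval 0.19 to 0.51), a 1.27-fold difference with 16 of 16 AU rats above the AI mean. Its adjusted p was 0.00587 by limma with Benjamini-Hochberg adjustment over all probesets, past the threshold of 0.05. It was the only member called in this comparison, 1 of 9 probesets, where 5.00% of all probesets were called higher and 0.512% lower. In AU-S against AI-S the difference was 0.41 (SE 0.09, 1.33-fold, limma adjusted p = 0.0823, threshold 0.1), and Gabrg1 was again the 1 member called, where 0.389% of all probesets were called higher. The number of probesets called there, 67, ran from 5 to 448 when 1 rat was left out. In AU-NS against AI-NS it was 0.28 (SE 0.13) and did not pass (limma adjusted p = 0.414), and it was 0.18 without replicate 8 of AI-NS. No probeset passed in that comparison with limma, so its background was 0, although 484 passed with the SAM statistic, 163 with all 4 groups in 1 fit and 40 with array weights, and 208 with limma without replicate 3 of AI-NS. With limma 8.55% of all probesets were higher in AU-NS at an unadjusted p under 0.05, Gabrg1 among them. The interaction of phenotype and task was 0.12 (SE 0.16, 95% interval -0.19 to 0.44), so the data do not set the spatial and non-spatial differences apart.

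The Gabrg1 signal also followed the RNA controls. Among rats of the same group it fell as the 3′ minus 5′ control difference rose, with Pearson r = -0.71 (p = 3e-05) and Spearman rho = -0.61 (p = 0.00033) over 31 rats by permutation tests, and r = -0.63 without the 2 arrays farthest from the median of the control difference. Adjusted over the 27 relations of members with scores that were computed, the Pearson p was 0.000202. With the control difference as a covariate the AU-act minus AI-act difference was 0.16 (SE 0.07, 95% interval 0.02 to 0.30, limma adjusted p = 0.377), no longer called. It was 0.31 (SE 0.09, adjusted p = 0.229) in the spatial task and -0.02 (SE 0.10, adjusted p = 1.00) in the non-spatial task. With this covariate 1 probeset of the whole table was called over both tasks, against 893 without it. With the 3′ minus 5′ difference of the hexokinase controls in its place, which was tried after the data were seen, the pooled difference was 0.07 (SE 0.08, adjusted p = 0.837). The part of RNA length in the Gabrg1 difference was not tested. In AU-S against AI-S the adjusted p lay close to its threshold. The call was lost in 13 of 16 fits that left out 1 rat (difference 0.36 to 0.46, adjusted p 0.0295 to 0.197) and under 8 of 13 other settings (difference 0.20 to 0.44), whereas over both tasks it held in 31 of 31 fits that left out 1 rat (adjusted p 0.00244 to 0.0118). Of the CA3 markers the 3 measured gave a mean signal 0.13 higher in AU-act (permutation test, p = 0.0066), of which Spock1 had most (0.27, beside 0.05 for Bok and 0.07 for Grik4). With the covariate Spock1 was at 0.18 and Bok and Grik4 at -0.01 each. For the dentate markers AU-S minus AI-S was -0.51 (Prox1), -0.39 (Calb1) and -0.13 (Trpc6), with 2 of 3 at an unadjusted p under 0.05 and none passing after adjustment. The summed linear signal of the CA3 markers ran from 3005 to 4343 in AU-S and 2828 to 3415 in AI-S. It ran from 3179 to 3714 in AU-NS and 2897 to 3760 in AI-NS. Of 5 markers of the neighbouring CA2 field 3 were measured, with a mean signal 0.14 higher in AU-act (permutation test, p = 0.0201). That mean was 0.24 higher in AU-S than in AI-S (exact permutation test, p = 0.0073). Between AU-NS and AI-NS it differed by 0.04 (exact permutation test, p = 0.617). The part of dissection in the member results was not tested. The astrocyte markers, of which 6 of 6 were measured, gave a mean signal 0.05 higher in AU-act (permutation test, p = 0.0774), and in bulk tissue fewer cells of a type and less RNA per cell cannot be told apart.

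**Figure D1:**
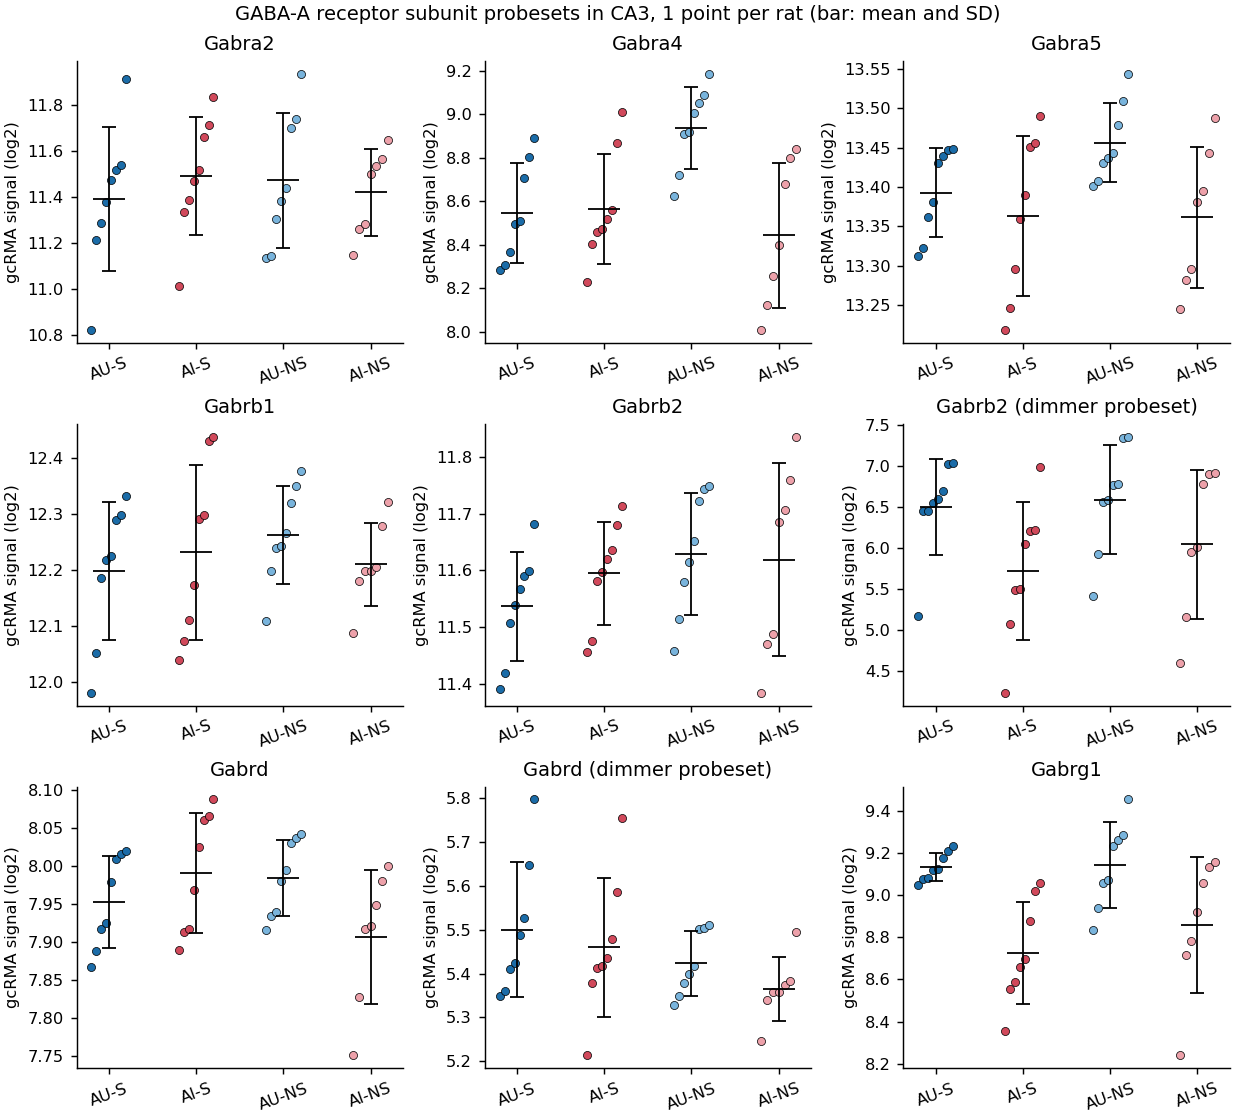
gcRMA signal on the log2 scale (vertical axis, its range set per panel) of each of the 9 probesets in the 4 groups, with 1 point per rat and the mean with its SD as bars. Gabrg1 sits higher in both AU groups, Gabra4 is highest in AU-NS (mean 8.94), and the Gabrb2 (dimmer probeset) panel spans the widest range (4.23 to 7.36).

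Gabra4 encodes alpha4, the alpha subunit that pairs with delta in receptors of tonic inhibition. It stood out in 1 group. The AU-NS rats read 8.63, 8.96 and 9.19 (lowest, median and highest of 8). The AU-S rats read 8.28, 8.50 and 8.89, the AI-S rats 8.23, 8.49 and 9.01, and the AI-NS rats 8.01, 8.40 and 8.84. The other 3 groups lay on top of each other, while 6 of 8 AU-NS rats were above every AU-S rat and 6 of 8 above every AI-NS rat.

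AU-NS exceeded AI-NS in Gabra4 by 0.49 (SE 0.13, 95% interval 0.22 to 0.77, 1.41-fold), with 8 of 8 AU-NS rats above the AI-NS mean. The unadjusted p of 0.00142 by limma ranked 125 of 16204, and after adjustment it did not pass (adjusted p = 0.183), as no probeset did. AU-S minus AI-S was -0.02 (SE 0.11, 95% interval -0.26 to 0.22, limma adjusted p = 0.966), and over both tasks the difference was 0.23 (SE 0.10, limma adjusted p = 0.182) and was not called. Within the AU rats, AU-S minus AU-NS was -0.39 (SE 0.10, 95% interval -0.60 to -0.18), ranked 23 of 16204 by its p, with 0 of 8 AU-S rats above the AU-NS mean, and again neither Gabra4 (adjusted p = 0.605) nor any other probeset passed. The interaction of phenotype and task was -0.51 (SE 0.18, 95% interval -0.87 to -0.15, limma adjusted p = 1.00) and ranked 37. No probeset passed the adjusted threshold for the interaction, and 2.44% had an unadjusted p under 0.05.

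Like Gabrg1, Gabra4 fell as the control difference rose among rats of 1 group (r = -0.61, p = 0.00013, adjusted over 27 relations 0.000585; rho = -0.69, p = 5e-05; r = -0.60 without the 2 farthest arrays, permutation tests, n = 31). With the control difference as a covariate AU-NS minus AI-NS was 0.20 (SE 0.11, limma adjusted p = 1.00), against 0.49 without it, AU-S minus AI-S was -0.12 (SE 0.13) and AU-act minus AI-act 0.00 (SE 0.10). The task difference within AU rats was less changed, at -0.32 (SE 0.10, 95% interval -0.53 to -0.11), and the interaction was -0.42 (SE 0.15, 95% interval -0.71 to -0.12). The dentate granule markers had the sign of Gabra4 in AU-NS against AI-NS and in the interaction. AU-NS minus AI-NS was 0.34 for Prox1, 0.06 for Calb1 and 0.13 for Trpc6, and the interaction was -0.85, -0.45 and -0.27, with 2 of 3 interactions at an unadjusted p under 0.05 and none passing after adjustment. Their mean signal ranged from 8.66 to 8.97 in AU-NS, 8.36 to 9.35 in AI-NS, 8.31 to 9.41 in AU-S and 8.52 to 9.56 in AI-S, and with the dentate and CA1 marker scores as covariates AU-NS minus AI-NS in Gabra4 was 0.49 (SE 0.13). For AU-S minus AU-NS the dentate markers had a median of -0.07 with 1 of 3 above 0, beside -0.39 in Gabra4. For AI-S minus AI-NS their median was 0.38 with 3 of 3 above 0, beside 0.12 in Gabra4. There 2 of 3 markers had an unadjusted p under 0.05 by limma and none passed. The interaction thus lay mostly in the AI rats for the markers and mostly in the AU rats for Gabra4. Among rats of 1 group Gabra4 and the mean dentate signal had r = 0.27 (permutation p = 0.138, adjusted over 27 relations 0.288, n = 31). Without the 2 arrays farthest from the median of the dentate signal r was 0.10.

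**Figure D2:**
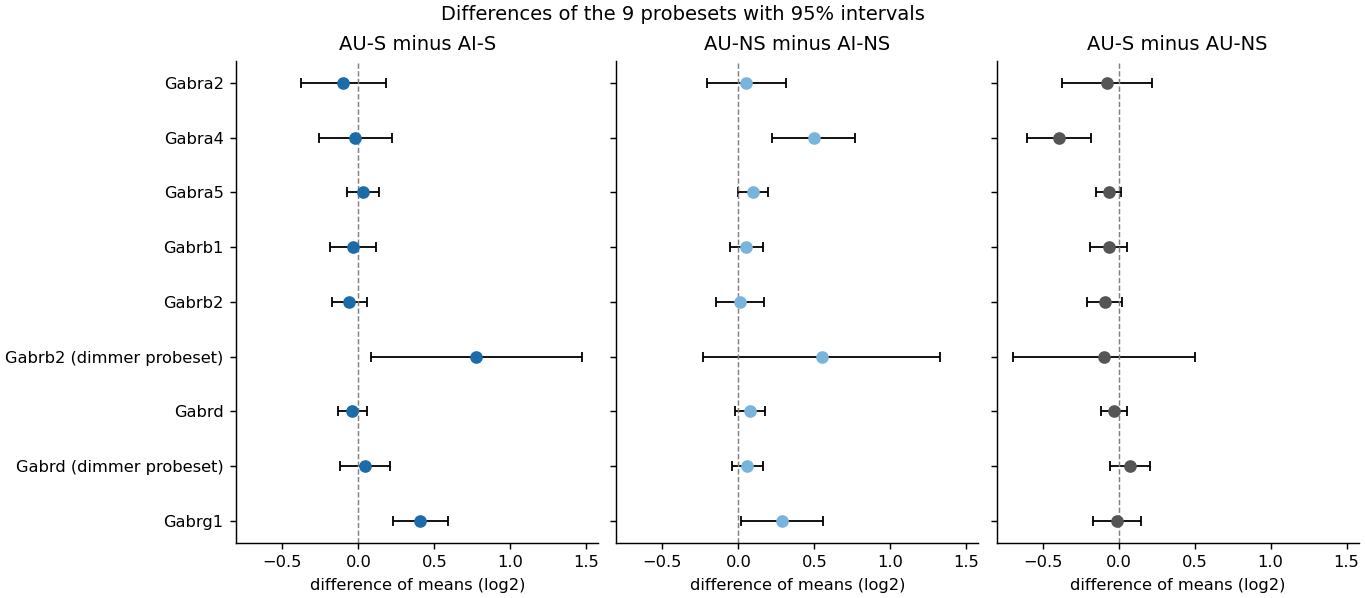
Difference of group means on the log2 scale (horizontal axis) for each of the 9 probesets, with limma's 95% interval, for AU-S minus AI-S, AU-NS minus AI-NS and AU-S minus AU-NS. Gabrg1 lies right of 0 in both comparisons of phenotype, and Gabra4 lies right of 0 in the non-spatial task (0.49) and left of 0 between the tasks (-0.39).

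Gabrb2 encodes beta2, the beta subunit of the most common synaptic receptors, and its 2 probesets differed. The brighter probeset hardly moved, from 11.39 to 11.84 over all rats, and AU-act minus AI-act was -0.02 (SE 0.04, 95% interval -0.11 to 0.07, limma adjusted p = 0.831). Among rats of 1 group it rose with the mean dentate marker signal, with r = 0.42 (permutation p = 0.0196, adjusted over 27 relations 0.0662, n = 31). Spearman rho was 0.46 (permutation p = 0.00927, adjusted 0.0358). The dimmer probeset read 5.17, 6.58 and 7.03 (lowest, median and highest) in AU-S and 4.23, 5.77 and 6.99 in AI-S. It read 5.41, 6.68 and 7.36 in AU-NS and 4.59, 6.01 and 6.91 in AI-NS. All groups overlapped, but 14 of 16 AU rats were above the AI mean.

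AU-act minus AI-act in the dimmer Gabrb2 probeset was 0.67 (SE 0.25, 95% interval 0.16 to 1.19, 1.59-fold), with a limma p of 0.0119 that did not pass after adjustment (adjusted p = 0.117). It was 0.78 (SE 0.33, adjusted p = 0.358) in the spatial and 0.55 (SE 0.37, adjusted p = 0.608) in the non-spatial task, where it was 0.31 without replicate 5 of AI-NS. The gap between the probesets, brighter minus dimmer, averaged 5.04 ± 0.60 (SD, n = 16) in AU-act and 5.74 ± 0.88 (SD, n = 15) in AI-act, a difference of -0.70 (two-sided permutation test, p = 0.0152, adjusted over the 2 genes with a pair 0.0304). The same gap for Gabrd differed by -0.03 (permutation test, p = 0.460). Within the tasks the Gabrb2 gap differed by -0.83 (spatial, exact permutation test, unadjusted p = 0.0340) and -0.54 (non-spatial, p = 0.218). Both dimmer probesets were among the dimmest, with 10.3% of probesets below the Gabrb2 one and 3.62% below the Gabrd one. The Gabrd gap is thus a limited contrast. The dimmer Gabrb2 probeset also fell as the control difference rose, with r = -0.66 (p = 6e-05) and rho = -0.66 (p = 5e-05, permutation tests, n = 31), and r = -0.60 without the 2 farthest arrays. With the control difference as a covariate its AU-act minus AI-act difference was 0.06 (SE 0.23, 95% interval -0.42 to 0.54), with 0.16 (SE 0.24) in the spatial and -0.09 (SE 0.39) in the non-spatial task, and that of the brighter probeset was -0.01 (SE 0.05).

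**Figure D3:**
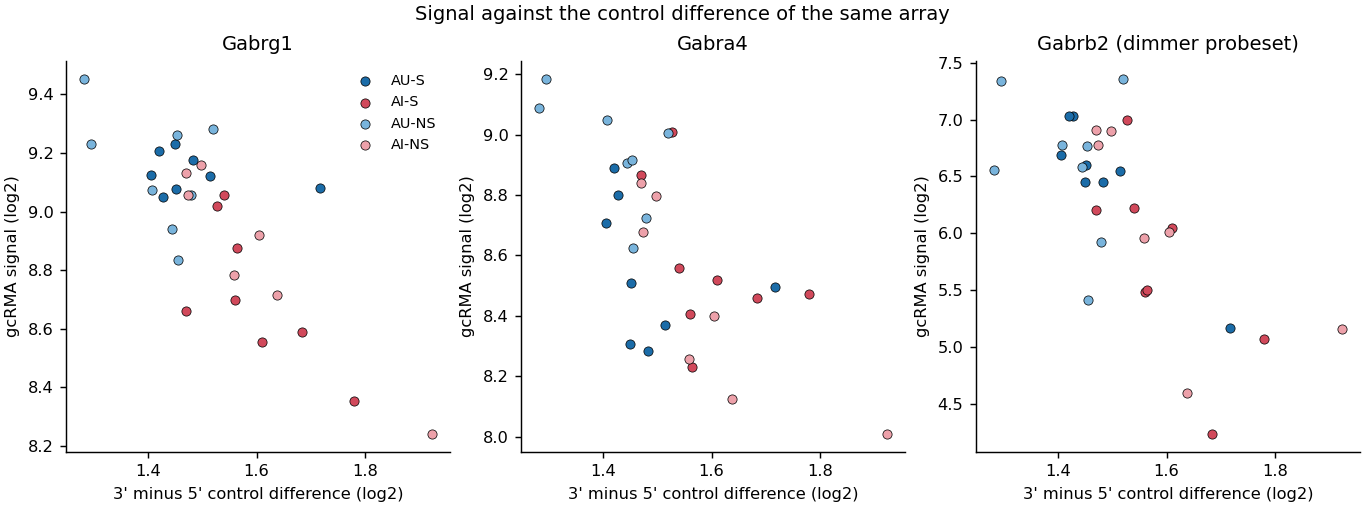
gcRMA signal on the log2 scale (vertical axis) against the 3′ minus 5′ control difference of the same array (horizontal axis, log2), with 1 point per rat coloured by group. All 3 probesets fall to the right, with within-group correlations of -0.71 for Gabrg1, -0.61 for Gabra4 and -0.66 for the dimmer Gabrb2 probeset.

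The subunits of tonic inhibition other than Gabra4 differed little. Gabra5, which encodes alpha5, read 13.22 to 13.54 over the 31 rats. AU-act minus AI-act was 0.06 (SE 0.03, 95% interval -0.00 to 0.13, limma adjusted p = 0.280), with 14 of 16 AU rats above the AI mean. The values of AU-NS (13.40 to 13.54) lay above the AI-NS mean in 8 of 8 rats, a difference of 0.10 (SE 0.05, limma adjusted p = 0.456), while AU-S minus AI-S was 0.03 (SE 0.05). Gabra5 also fell with the control difference (r = -0.46, permutation p = 0.00915, adjusted over 27 relations 0.0353, n = 31), but Spearman rho was -0.33 (p = 0.0698) and r was -0.32 without the 2 farthest arrays. With the covariate AU-act minus AI-act in Gabra5 was 0.01 (SE 0.04).

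Gabrd, which encodes delta, read 7.75 to 8.09 with its brighter probeset and 5.21 to 5.80 with its dimmer one. AU-act minus AI-act was 0.02 (SE 0.03, 95% interval -0.05 to 0.08) and 0.05 (SE 0.05, 95% interval -0.05 to 0.14), and neither was called (limma adjusted p = 0.825 and 0.640). In the brighter probeset 8 of 8 AU-NS rats were above the AI-NS mean, by 0.08 on average (SE 0.05, limma adjusted p = 0.554). With the covariate AU-act minus AI-act was 0.00 (SE 0.04) in the brighter and 0.06 (SE 0.06) in the dimmer Gabrd probeset.

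Gabra2 and Gabrb1, which encode alpha2 and beta1, showed no difference that passed in any comparison. Gabra2 spread widely among rats, from 10.82 to 11.94, and AU-act minus AI-act was -0.03 (SE 0.09, 95% interval -0.21 to 0.16, limma adjusted p = 0.920). Gabrb1 ranged from 11.98 to 12.44, with a difference of 0.01 (SE 0.04, 95% interval -0.08 to 0.10, limma adjusted p = 0.945). With the covariate these differences were -0.07 (SE 0.11) for Gabra2 and -0.03 (SE 0.05) for Gabrb1.

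The 9 probesets had a median AU-act minus AI-act difference of 0.05, beside 0.01 for all probesets, with 7 of 9 above 0 beside 53.3% of all. At an unadjusted p under 0.05 there were 3 of 9, all higher in AU, beside 14.1% of all probesets higher. In the spatial task the median was -0.02 with 4 of 9 above 0, beside 0.01 and 53.9% for all probesets, and 2 of 9 were higher at an unadjusted p under 0.05 beside 8.42% of all probesets. In the non-spatial task the median was 0.08 with 9 of 9 above 0, beside 0.01 and 52.7% for all probesets, and 2 of 9 were higher at that limit beside 8.55% of all. Between the tasks no member was called. In AI rats S minus NS ran from -0.32 (dimmer Gabrb2 probeset) to 0.12 (Gabra4), with 0 of 9 at an unadjusted p under 0.05 beside 4.09% of all probesets. In AU rats S minus NS was above 0 in 1 of 9 probesets, beside 47.0% of all, with 1 of 9 at an unadjusted p under 0.05 (Gabra4), beside 8.12% of all.

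**Figure D4:**
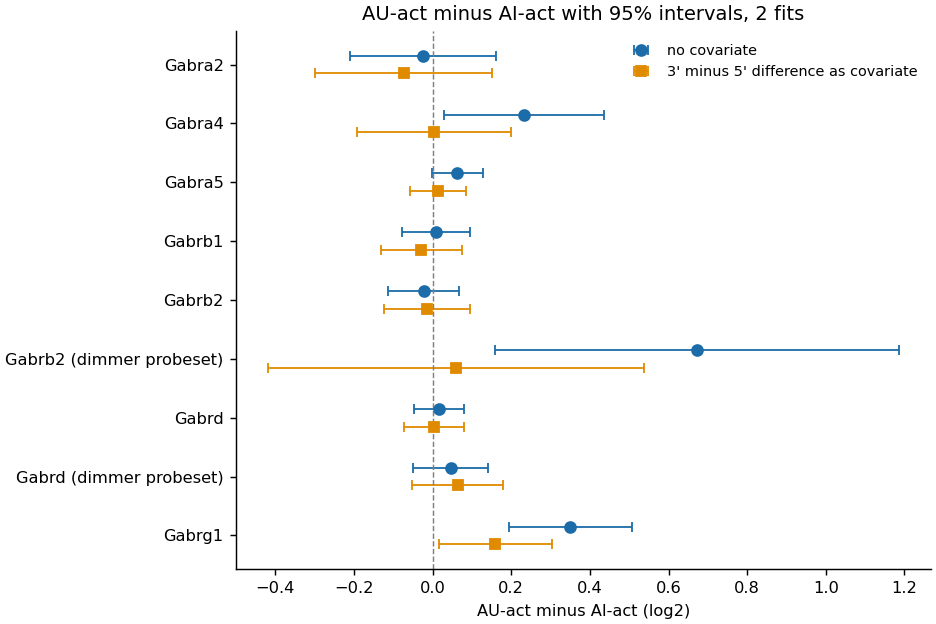
AU-act minus AI-act difference on the log2 scale (horizontal axis) of the 9 probesets with limma's 95% interval, without a covariate (circles) and with the 3′ minus 5′ control difference as a covariate (squares). Gabrg1 moves from 0.35 to 0.16, Gabra4 from 0.23 to 0.00 and the dimmer Gabrb2 probeset from 0.67 to 0.06, while the other 6 stay near 0.

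The members were also compared with each other across rats, after the group means were subtracted. Of 21 pairs of genes, 15 correlated above 0, and r ran from -0.38 to 0.57. Gabra4 and Gabrg1 had r = 0.57 (permutation p = 0.00057, adjusted over the 21 pairs 0.0120, n = 31) and rho = 0.51 (p = 0.00394, adjusted 0.0827), and r = 0.49 without the 2 rats farthest from the Gabra4 median. It was the 1 pair with an adjusted Pearson p under 0.05, and both genes followed the control difference, as given above.

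The genes whose within-group pattern was most like Gabrg1 over the 31 rats were Zfp106 (r = 0.86), Plekhb2 (0.85) and Pds5b (0.85), and those most like Gabra4 were Kiaa0408L, Ncor1 and Kifap3 (each 0.85). For the other members the nearest gene was less like, with r = 0.81 for Gabrb1 (Pnck), 0.78 for Gabrb2 (Ankrd49), 0.74 for Gabra5 (Clcn7), 0.72 for Gabrd (Pnn) and 0.71 for Gabra2 (Arhgap5). Each member was read at its brightest probeset, and every other gene at the probeset that correlated most with it. The genes named were the highest of all by this choice and are a description with no test.

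Other genes of GABA signalling were read at the brightest probeset of each gene, where 2.05% of all genes were called higher in AU-act. Of 9 genes of GABA synthesis, loading, uptake and breakdown 5 were in the table, and 1 was higher. Gad2, which encodes the GABA-making enzyme GAD65, was higher by 0.48 (SE 0.14, limma adjusted p = 0.0391), and by 0.22 (adjusted p = 0.598) with the control difference as a covariate. Gad1, which encodes the other such enzyme, differed by 0.10 (SE 0.05, adjusted p = 0.283) and Slc32a1, the vesicular GABA transporter, by 0.02 (SE 0.09). The mean of 8 interneuron markers differed by 0.01 between AU-act and AI-act (permutation test, p = 0.923), but its members went both ways, with 3 of 8 above 0. Kit was called higher, by 0.44 (SE 0.09, limma adjusted p = 0.00412), or 0.29 with the covariate (adjusted p = 0.264), and Vip was at -0.34 (SE 0.15, limma adjusted p = 0.203).

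Of 22 anchors and trafficking factors of GABA-A receptors 19 were in the table, 2 were higher and none lower, and their median difference was 0.04. Nsf, the ATPase of vesicle fusion that also acts on receptor delivery, was higher by 0.20 (SE 0.04, limma adjusted p = 0.00164), and Arfgef2, an exchange factor for ARF GTPases that binds beta subunits, by 0.29 (SE 0.07, limma adjusted p = 0.0123). With the control difference as a covariate these were 0.14 (adjusted p = 0.192) and 0.16 (adjusted p = 0.406). Arfgef2 also passed in AU-S against AI-S at 0.38 (SE 0.09, adjusted p = 0.0996), where 0.0775% of genes were called higher. Gphn, the synaptic scaffold gephyrin, differed by 0.02 (SE 0.03) and Rdx, radixin, the anchor of alpha5 receptors, by -0.01 (SE 0.05). The GABA-B receptor genes Gabbr1 (0.03) and Gabbr2 (0.01) and the chloride cotransporter genes Slc12a5 (0.06) and Slc12a2 (0.02), which set the direction of the chloride current, were not called, 0 of 4. Each of these genes stands on its brightest probeset alone, and no other probeset of them was read here. The study itself, with the SAM statistic, reported the members Gabra4 and Gabra5 as increased in AU-act rats. It reported the same of Gad1, Gad2, Gabbr1, Gabbr2 and Rdx, among others. Of these genes only Gad2 was called here with limma, so the results on the 2 members differ from those of the study. A small or uncalled value here does not show that a gene was unchanged.

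**Figure D5:**
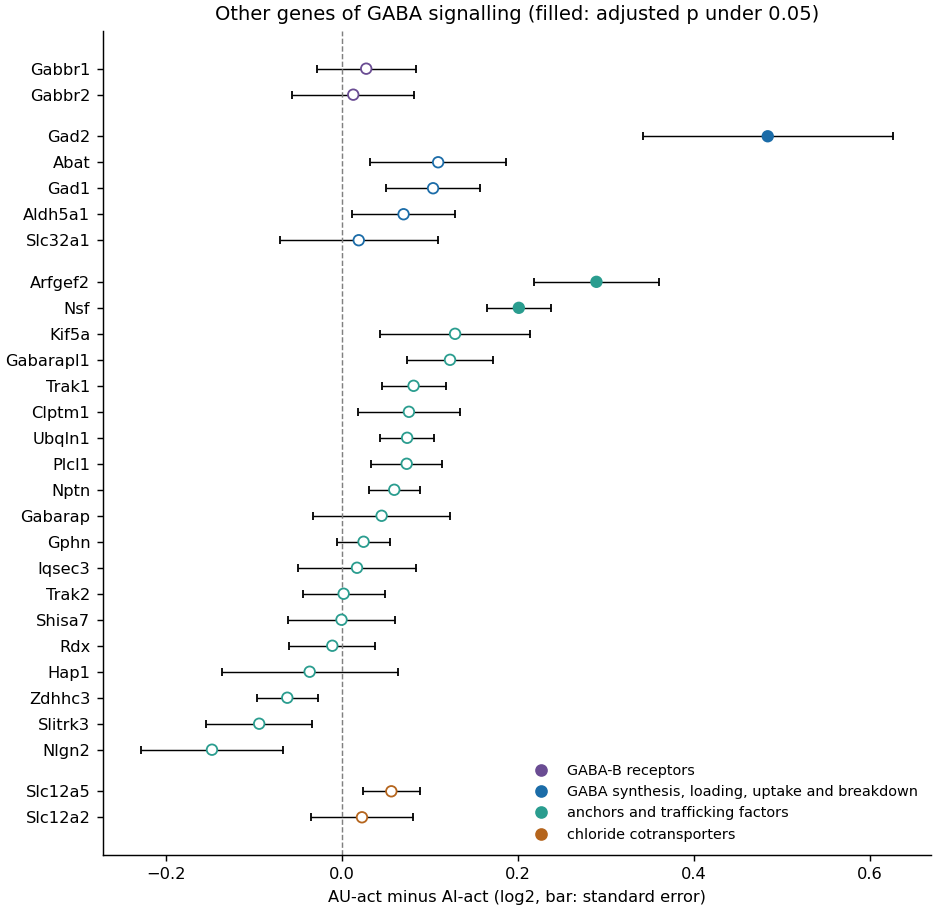
AU-act minus AI-act difference on the log2 scale (horizontal axis) for 28 other genes of GABA signalling in 4 lists, with the standard error as bars and filled points for an adjusted p under 0.05. Gad2 (0.48), Arfgef2 (0.29) and Nsf (0.20) are filled, and most other points lie within 0.15 of 0.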

How the data were processed

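RNA from CA3 of 31 rats was hybridized to Affymetrix rat expression arrays, 1 array per rat. The authors read the scans with the affy package and made the deposited values with the gcRMA method, whose versions are not given in the sources used here. The deposited values are log2 signals after background correction, normalization between arrays and summary per probeset, and their smallest mean over the arrays was 5.00. As arrays count nothing, precision is set by how many rats there were and by how far each probeset spread among them. Groups came from the labels. A look at the replicate numbers is given in the closing section.

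The comparisons used limma 3.58.1 under R 4.3.3 (functions lmFit and eBayes, two-sided) over all 16204 probesets with a mean of at least 4, which removed none, and p-values were adjusted by the Benjamini-Hochberg method. The threshold on the adjusted p was 0.05 for AU-act against AI-act and 0.1 for the other 5 comparisons. The intervals are limma's 95% intervals. The fit was tested on simulated data with known differences. Of 200 probesets changed 1.2-fold, 51.5% were recovered in AU-act against AI-act, 20.5% in AU-S against AI-S and 15.5% in AU-NS against AI-NS. At 1.5-fold these shares were 94.5%, 86% and 77.5%. Small true differences would thus often go uncalled. Correlations and scores were tested with 100000 resamples or exactly, in Python 3.11. All 7 members and every probeset mapped to them alone were named. From each list of other genes at most the 5 with the smallest adjusted p and any that passed were named, and Gphn, Rdx, Slc32a1 and the genes of the short lists were named for their roles after their values were seen. A gene with several probesets was represented in lists by the brightest. The members, the lists and the tests were chosen with earlier results of these data known. Alternatives were other intensity limits, median centring, a replicate block, array weights, quantile normalization, a robust prior with trend, covariates, the SAM statistic, the mean of a gene's probesets, other fits of the groups and each array left out in turn.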

Additional observations from a re-analysis of the deposited data

Results flagged for a closer look

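In the dimmer Gabrb2 probeset, replicate 5 of AU-S read 5.17, apart from the other 7 rats of its group, which read 6.45 to 7.03. The array was singled out because its gap to the nearest rat was 0.686 of the range of the group. Over the 36 sets of 1 probeset in 1 group that were looked at, chance flags about 1 in 20, and this was the only one. The same array had a 3′ minus 5′ control difference of 1.72, where the other AU-S rats had 1.41 to 1.51, and its part in the low value was not tested. Without this rat AU-S minus AI-S in that probeset was 0.97 (limma adjusted p = 0.141), beside 0.78 with it.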

How the results depend on the processing

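The Gabrg1 call over both tasks held under 11 of 13 settings and was lost with both covariates of the RNA controls. The count of members called was 1 over both tasks, but 2 with array weights and with the SAM statistic, where the dimmer Gabrb2 probeset joined (adjusted p = 0.0417 and 0.0464), and 0 with the RNA quality covariate or the hexokinase covariate. In AU-S against AI-S the count was 0 in place of 1 under median centring, quantile normalization, the replicate block, the RNA quality covariate, the dentate granule and CA1 scores, the mean of all probesets of a gene, all 4 groups in 1 fit and the hexokinase covariate, and 0 to 1 with 1 rat left out, while the Gabrg1 difference there was 0.20 to 0.44 over all settings. In AU-NS against AI-NS it was 1 in place of 0 with the SAM statistic and with all 4 groups in 1 fit (Gabra4, adjusted p = 0.0665 and 0.0815), and 0 to 1 with 1 rat left out. It stayed at 0 in the other 3 comparisons. Same-numbered rats of different groups correlated at -0.47 to 0.31 over 45 pairs, 7 of them over 0.1. Values for differently numbered rats are not set beside these, so they cannot decide whether the numbers pair rats. With the replicate block 591 probesets were called over both tasks in place of 893 and 3 in place of 67 in the spatial task. Elsewhere over all probesets, AU-act against AI-act gave 1287 with array weights, 1621 with SAM, 1 with the RNA quality covariate and 0 with hexokinase, and AU-S against AI-S gave 551, 564, 1 and 0, with 9 after median centring and 12 after quantile normalization. AU-NS against AI-NS gave 484 with SAM, 163 with all 4 groups in 1 fit and 40 with array weights in place of 0. With 1 rat left out these counts were 621 to 1181, 5 to 448 and 0 to 208.

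Signs turned in 25 of 342 differences of single probesets under these settings. Over both tasks these were Gabrb1 at -0.0043 with median centring, -0.020 with quantile normalization and -0.029 with the RNA quality covariate, Gabra2 at 0.011 and Gabrb2 at 0.00074 with array weights, and Gabrb2 at 0.32 with the mean of its probesets. The hexokinase covariate gave Gabrb2 0.029, its dimmer probeset -0.31, Gabra4 -0.054 and Gabrd -0.021. In the spatial task they were Gabra4 at 0.0019 with array weights and 0.068 with the dentate granule and CA1 scores, Gabra5 at -0.0086 with those scores and -0.012 with the RNA quality covariate, Gabrb2 at 0.36 and Gabrd at 0.0011 with the mean of their probesets, and Gabrb1 at 0.065 and the dimmer Gabrb2 probeset at -0.46 with hexokinase. In the non-spatial task they were Gabrb2 at -0.0018 with median centring, -0.025 with quantile normalization and -0.036 with the scores, the dimmer Gabrb2 probeset at -0.089 with the RNA quality covariate and -0.28 with hexokinase, and Gabrg1 at -0.024 and -0.0098 with these. With 1 rat left out, signs turned over both tasks for Gabrb1 (-0.0044 to 0.025) and Gabra2 (-0.059 to 0.016), in the spatial task for Gabra4 (-0.069 to 0.044) and the dimmer Gabrd probeset (-0.0017 to 0.083), and in the non-spatial task for Gabrb2 (-0.029 to 0.046) and Gabra2 (-0.014 to 0.10). The causes were not tested.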
